A study of Mus musculus with 15 samples.

Results

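The genes described here are the mouse proteasome genes of a bone marrow RNA sequencing study. They were chosen by name: every gene whose symbol begins with Psm, then a letter from a to g and a number, with pseudogenes left out. This gave 48 of the 14801 genes in the deposited table, and all 48 passed the filter on low values that left 14161 genes for testing. The immunoproteasome members Psmb8, Psmb9, Psmb10, Psme1 and Psme2 are reported apart from the other 43. The rule also takes in Psmc3ip, which is no proteasome subunit but a partner of the meiotic recombinases that was named for binding Psmc3.

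Libraries came from 5 cell populations isolated by flow cytometry from unmanipulated marrow of healthy mice, with 3 libraries each and 15 in all. They are the common myeloid progenitor (CMP), the granulocyte-monocyte progenitor positive for CD115, a cytokine receptor of the monocyte lineage (CD115plusGMP), and cells labelled PreNeut_Neutrophil, ProNeut_Neutrophil and Neutrophil. The names PreNeut and ProNeut are used below for the first pair of neutrophil populations. The labels give no strain, age, gate or treatment. They do not tie a library to an animal, and every p-value here therefore rests on a spread between libraries that could be technical.

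The proteasome degrades proteins tagged with ubiquitin. Its barrel-shaped core, the 20S particle, is built of alpha rings that gate the entrance and beta rings that hold the catalytic sites, and the 19S regulatory particle binds ubiquitin, unfolds the substrate with ATPases and feeds it into the core. Interferon-inducible catalytic subunits can take the places of the constitutive ones to form the immunoproteasome, whose peptides are loaded on MHC class I molecules. In granulocyte precursors, proteasomes turn over regulators of the cell cycle and of survival while granule proteins are made.

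Promoter sequences are shown for the members of the catalytic pairs on which the immunoproteasome comparison turns and whose window around the RefSeq gene start held a searched motif. They are RefSeq sequences on the GRCm38.p6 build, read 5′ to 3′ on the strand of the gene. The Psmb6 stretch lies at chr11:70525107-70525356 on the plus strand and that of Psmb5 at chr14:54618023-54618245 on the minus strand. In both, the capitals mark a match to TGACNNNGC, a core of the antioxidant response element that Nfe2l1 and Nfe2l2 bind.
Psmb6: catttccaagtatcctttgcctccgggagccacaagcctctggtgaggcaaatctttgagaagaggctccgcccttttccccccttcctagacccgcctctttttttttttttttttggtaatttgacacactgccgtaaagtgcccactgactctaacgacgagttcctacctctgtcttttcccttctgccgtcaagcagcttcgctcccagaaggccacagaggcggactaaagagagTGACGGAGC
Psmb5: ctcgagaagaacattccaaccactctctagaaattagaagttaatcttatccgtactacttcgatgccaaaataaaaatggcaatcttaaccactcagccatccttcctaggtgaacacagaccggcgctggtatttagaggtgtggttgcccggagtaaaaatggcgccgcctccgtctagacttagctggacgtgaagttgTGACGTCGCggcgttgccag
The immunoproteasome counterparts of these genes are shown as short stretches. The Psmb8 stretch lies at chr17:34198088-34198116 on the plus strand, with a match to TTCNNNGAA, the core of the gamma-activated site, in capitals. The Psmb9 stretch lies at chr17:34187331-34187355 on the minus strand, with a CCAAT box in capitals that reads ATTGG on this strand. Both stretches precede a RefSeq start but lie inside the wider GENCODE M21 gene spans, chr17:34197721-34201454 for Psmb8 and chr17:34181987-34187764 for Psmb9.
Psmb8: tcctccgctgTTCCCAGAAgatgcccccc
Psmb9: accgcgcgcagccgctgATTGGaaa

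Motifs were searched on both strands of 32851 RefSeq promoter windows, of which 43 belong to 40 of the 48 members. Either antioxidant response element core, TGACNNNGC or TGAGNNNGC, was present in 18 of the 43 windows (41.9%), from 17 members, against 27.8% of all windows. The core marked in the printed promoters, TGACNNNGC, was in 6 windows (13.95% against 12.39%), a share near that of all windows. TGAGNNNGC was in 14 windows (32.56% against 17.65%). The core of the interferon-stimulated response element was found in 5 windows (11.6% against 3.44%), 1 of them of the immunoproteasome gene Psme1. TTCNNNGAA was found in 3 windows (6.98% against 8.30%) and CCAAT in 14 (32.6% against 37.4%). A match is a description of the letters in the window and not a binding site.

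The 15 libraries fell into a shallower and a deeper set, and this bears on every value below. The 9 libraries of CMP, CD115plusGMP and Neutrophil held between 810794 and 1444403 reads, and the 6 of PreNeut and ProNeut between 7493694 and 68171606. Identifiers that carry no gene symbol took 55.6% to 69.5% of the reads in the shallower set and 0.102% to 0.146% in the deeper one. The strand on which reads were counted is not given in the sources used here, so for the shallower set it could not be told whether a gene's reads came from its own strand. Set and population cannot be told apart between these libraries, and values of the 2 sets are only placed side by side. The library size that the deposited values imply was not the total of these reads. It was 0.861 to 0.908 of the total in CMP, 0.570 to 0.648 in CD115plusGMP and 0.254 to 0.445 in Neutrophil. In PreNeut it was 2.07 to 2.24 times the total and in ProNeut 1.93 to 2.10. CPM values, ratios of scaled reads and fold bounds below rest on these implied sizes, except where other scalings are named. Population markers followed the labels in part. The summed level of 12 neutrophil-lineage markers was 39.3 to 44.5 CPM (reads scaled by library size) in CMP, 391 to 856 in CD115plusGMP and 9855 to 35253 in Neutrophil. It was 73611 to 94884 CPM in PreNeut and 92790 to 115988 in ProNeut.

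Proteasome genes took a larger share of reads in the deeper set. They held 0.321% to 0.336% of reads in PreNeut, 0.271% to 0.291% in ProNeut, 0.0962% to 0.115% in CMP, 0.0470% to 0.0754% in CD115plusGMP and 0.0183% to 0.0419% in Neutrophil. Over reads on identifiers with a symbol, the shares were 0.322% to 0.336% in PreNeut, 0.271% to 0.292% in ProNeut, 0.218% to 0.260% in CMP, 0.123% to 0.190% in CD115plusGMP and 0.0599% to 0.115% in Neutrophil. By either total the order was the same and no pair of populations overlapped, but by the second CMP lay close to ProNeut. Psmc3ip alone held 49 of 205, 85 of 235 and 59 of 588 of these reads in the Neutrophil libraries. In reads, this was 36357 to 228113 per library in PreNeut but only 205 to 588 in Neutrophil, so that 15 to 25 members had 0 reads in a Neutrophil library and 12 had none in all 3. In bulk samples such as these, fewer cells of a type and less RNA per cell cannot be told apart.

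The median log2 CPM over the 48 members was 5.05 in PreNeut, 4.84 in ProNeut, 3.80 in CMP, 2.97 in CD115plusGMP and 2.80 in Neutrophil. As percentiles among all genes of the same library, the medians were 80.9, 78.8, 77.3, 65.3 and 55.5 in that order. Deposited values rest on 0.5 reads added to each gene, so a gene with 0 reads stood at 0.63 and 0.62 log2 CPM in Neutrophil replicates 1 and 2 and at -1.31 to -0.79 in CMP. A gene with 0 reads in every library of both groups would therefore show a difference of 1.37 between Neutrophil and CMP. Such a gene also counts as above 0 in Neutrophil replicates 1 and 2, of the 3 libraries that the filter asks for. Shares and medians over all genes tested therefore include genes near this floor. The median member stood at percentile 77.3 in CMP, so members and all genes are not matched for level.

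**Figure D1:**
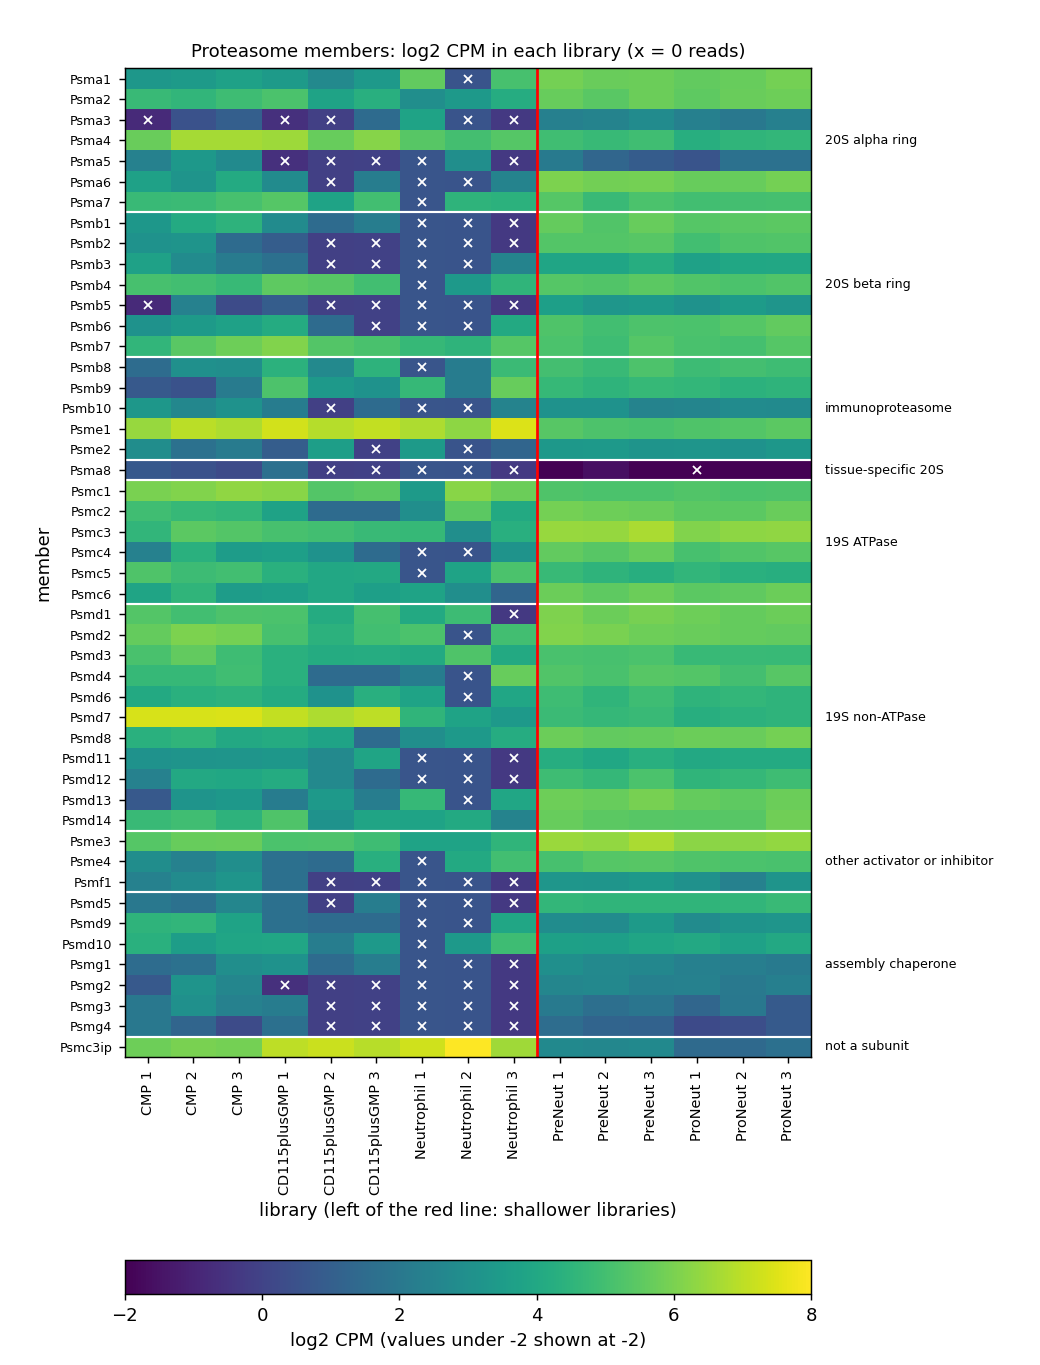
Level of each of the 48 proteasome members (vertical axis, grouped by role) in each of the 15 libraries (horizontal axis), as log2 CPM on a colour scale from -2 to 8. White crosses mark 0 reads and the red line parts the 9 shallower from the 6 deeper libraries. The crosses gather in CD115plusGMP and Neutrophil, and the deeper set has a single one, for Psma8 in ProNeut replicate 1.

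Within the deeper set the members kept nearly the same order of levels. Over the 48 members, Spearman's rho between the group means of PreNeut and ProNeut was 0.982. It was 0.743 to 0.825 among the shallower groups and 0.464 to 0.50 between groups of different sets. These correlations are across genes that share libraries and are given as descriptions.

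Scaled per kilobase of transcript, which allows levels of different genes to be compared, the core and the regulatory particle lay close together in PreNeut. The median level was 4.65 log2 CPM per kilobase for the 7 alpha ring genes, 4.93 for the 7 constitutive beta ring genes, 4.75 for the 6 ATPases and 4.31 for the 11 other subunits of the regulatory particle. The 5 immunoproteasome genes had a median of 4.20, and the 7 assembly chaperones, which help build the particle but are not part of it, had 2.16. The highest members were Psma6 (5.88), Psmc3 (5.67) and Psmb2 (5.57). The lowest was Psma8 (-4.45), an alpha subunit of the testis, with 3, 8 and 1 reads in the 3 PreNeut libraries.

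Psma3 (1.04) and Psma5 (1.13) lay far below the other alpha ring genes per kilobase in PreNeut, although the ring holds each alpha subunit in equal number. Both are among 9 members with near-identical copies elsewhere in the genome (at least 95% identity over 200 bases), with Psma4, Psmb3, Psmb5, Psmc1, Psmd2, Psmd11 and Psme2. Reads of these genes can be split with their copies, so their levels are uncertain. The lengths used also differ, since the longest transcript was taken: 2846 bases for Psma3 against 1042 for Psma6. The part of copies and lengths in these 2 low levels was not tested.

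**Figure D2:**
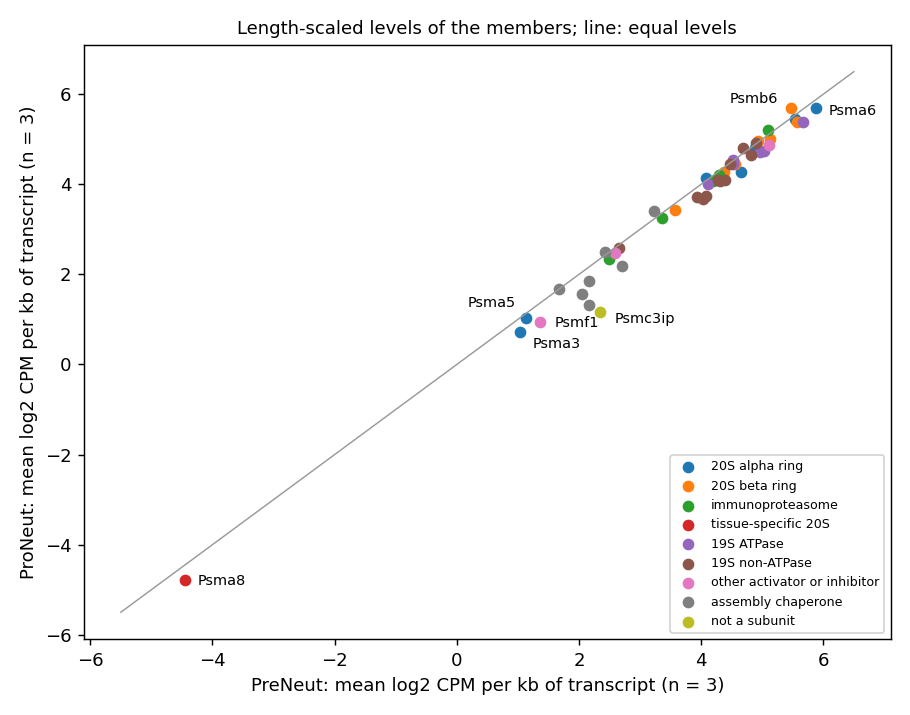
Mean level of each member in ProNeut (vertical axis) against PreNeut (horizontal axis), both as log2 CPM per kilobase of transcript over 3 libraries, coloured by role. Points lie close to the line of equal levels, with Psmc3ip below it, the chaperones at lower levels than most core subunits, and Psma8 apart at -4.45 and -4.78.

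The comparison of ProNeut with PreNeut asks whether proteasome transcripts differ between these stages of neutrophil development. Most members were slightly lower in ProNeut, but no member was called. A gene was called when its Benjamini-Hochberg adjusted p in limma was under 0.05 and its log2 difference at least 1 in size. By that rule 0 of 48 were called higher and 0 lower, against 1.84% and 0.417% of all genes tested. At an unadjusted p under 0.05, limma had 1 member lower, Psmc3ip (against 3.64% of all genes), and none higher (against 7.95%). With limma-voom on the reads recovered from the deposited values, which weights each value by its depth, that gene was called lower.

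In value, 38 of the 48 members were lower in ProNeut, against 44.6% of all genes, and 10 were higher, against 55.4%. The median difference was -0.14 against 0.07 over all genes. A gene with 0 reads in every library of both groups would show a difference of 1.19 here. Genes near the floor therefore lean to the higher side of the counts over all genes. With log2 CPM above 2 in at least 3 libraries as the filter, the medians were -0.13 for the members kept and 0.03 for all genes. Members whose 3 ProNeut libraries all lay below the 3 PreNeut libraries numbered 11 (22.9%, against 18.2% of all genes), and none lay wholly above (against 17.8%). By role, the medians were -0.09 for the alpha ring, -0.10 for the beta ring, -0.18 for the ATPases, -0.18 for the other regulatory subunits, -0.09 for the immunoproteasome and -0.30 for the chaperones. Their ranges overlapped.

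The limma fit shared its estimate of spread with the 9 shallower libraries, where the members varied far more. The median standard error of a member was 0.62 log2 units in that fit and 0.11 when only the 6 deeper libraries were fitted. In the latter, 6 members had an adjusted p under 0.05 with no minimum size, all of them lower in ProNeut (12.5%, against 11.1% of all genes lower and 10.8% higher). These were Psmc3ip, Psmd3, Psma4, Psmd2, Psmd7 and Psmc3, named here after their values were seen. Of them, Psmd3, a scaffold subunit of the regulatory particle, had 5.13, 5.09 and 5.16 log2 CPM in PreNeut and 4.76, 4.79 and 4.76 in ProNeut. The groups did not overlap, and the difference was -0.36 (SE 0.09, adjusted p = 0.00961, limma on 6 libraries). The intervals of that fit also bound what was not called: for Psmb1, a beta ring subunit, the 95% interval ran from -0.33 to 0.13.

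Psmc3ip, at chr11:101091823-101095436 on the minus strand, had 2.75, 2.63 and 2.76 log2 CPM in PreNeut and 1.47, 1.40 and 1.71 in ProNeut. Every ProNeut library lay below every PreNeut library. The difference of -1.18 (SE 0.37) had an adjusted p of 0.135 in limma over all libraries. It was called with the 6 deeper libraries alone (adjusted p = 0.00174), with limma-voom (0.00433) and with plain library totals (0.0412). Its adjusted p ran from 0.00174 to 0.350 over 19 alternatives. Psmc3ip shares 385 bases of exon with Mlx on the opposite strand, whose mean log2 CPM was 5.05 in PreNeut and 5.15 in ProNeut.

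Among the true proteasome genes the differences furthest from 0 were in chaperones of core assembly, and none was called. Psmg4 had 1.57, 1.23 and 1.15 log2 CPM in PreNeut and 0.23, 0.39 and 0.82 in ProNeut, a difference of -0.84 (SE 0.60, limma adjusted p = 0.735). Psmg1 had 2.96, 2.70 and 2.62 in PreNeut and 2.36, 2.27 and 2.08 in ProNeut, a difference of -0.52 (SE 0.54, limma adjusted p = 0.923). For both genes every ProNeut library lay below the lowest PreNeut library, while the difference was under 2 standard errors in the fit over all libraries.

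In the upward direction the values were smaller. Psmb6, the constitutive subunit of caspase-like cleavage, differed by 0.22, Psmd10, a chaperone of the regulatory particle, by 0.19 and Psmd8, a subunit of its lid, by 0.12. Their libraries overlapped between the groups.

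Other marker lists moved between these populations. Of 10 DNA replication genes, 4 were called lower in ProNeut, and their summed level fell from 1066 to 1143 CPM in PreNeut to 366 to 409 in ProNeut. Of 9 erythroid markers, 5 were called higher, at 2.56 to 6.19 CPM in PreNeut and 47.8 to 53.5 in ProNeut. Of 12 neutrophil-lineage genes, Elane, Mpo, Prtn3 and Ctsg were called lower and Mmp8 and Mmp9 higher. T and NK cell markers summed to 21.6 to 29.3 CPM in PreNeut and 3.21 to 5.24 in ProNeut, with 1 of the 2 tested called lower and the other higher. The part of these lists in the proteasome values was not tested.

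**Figure D3:**
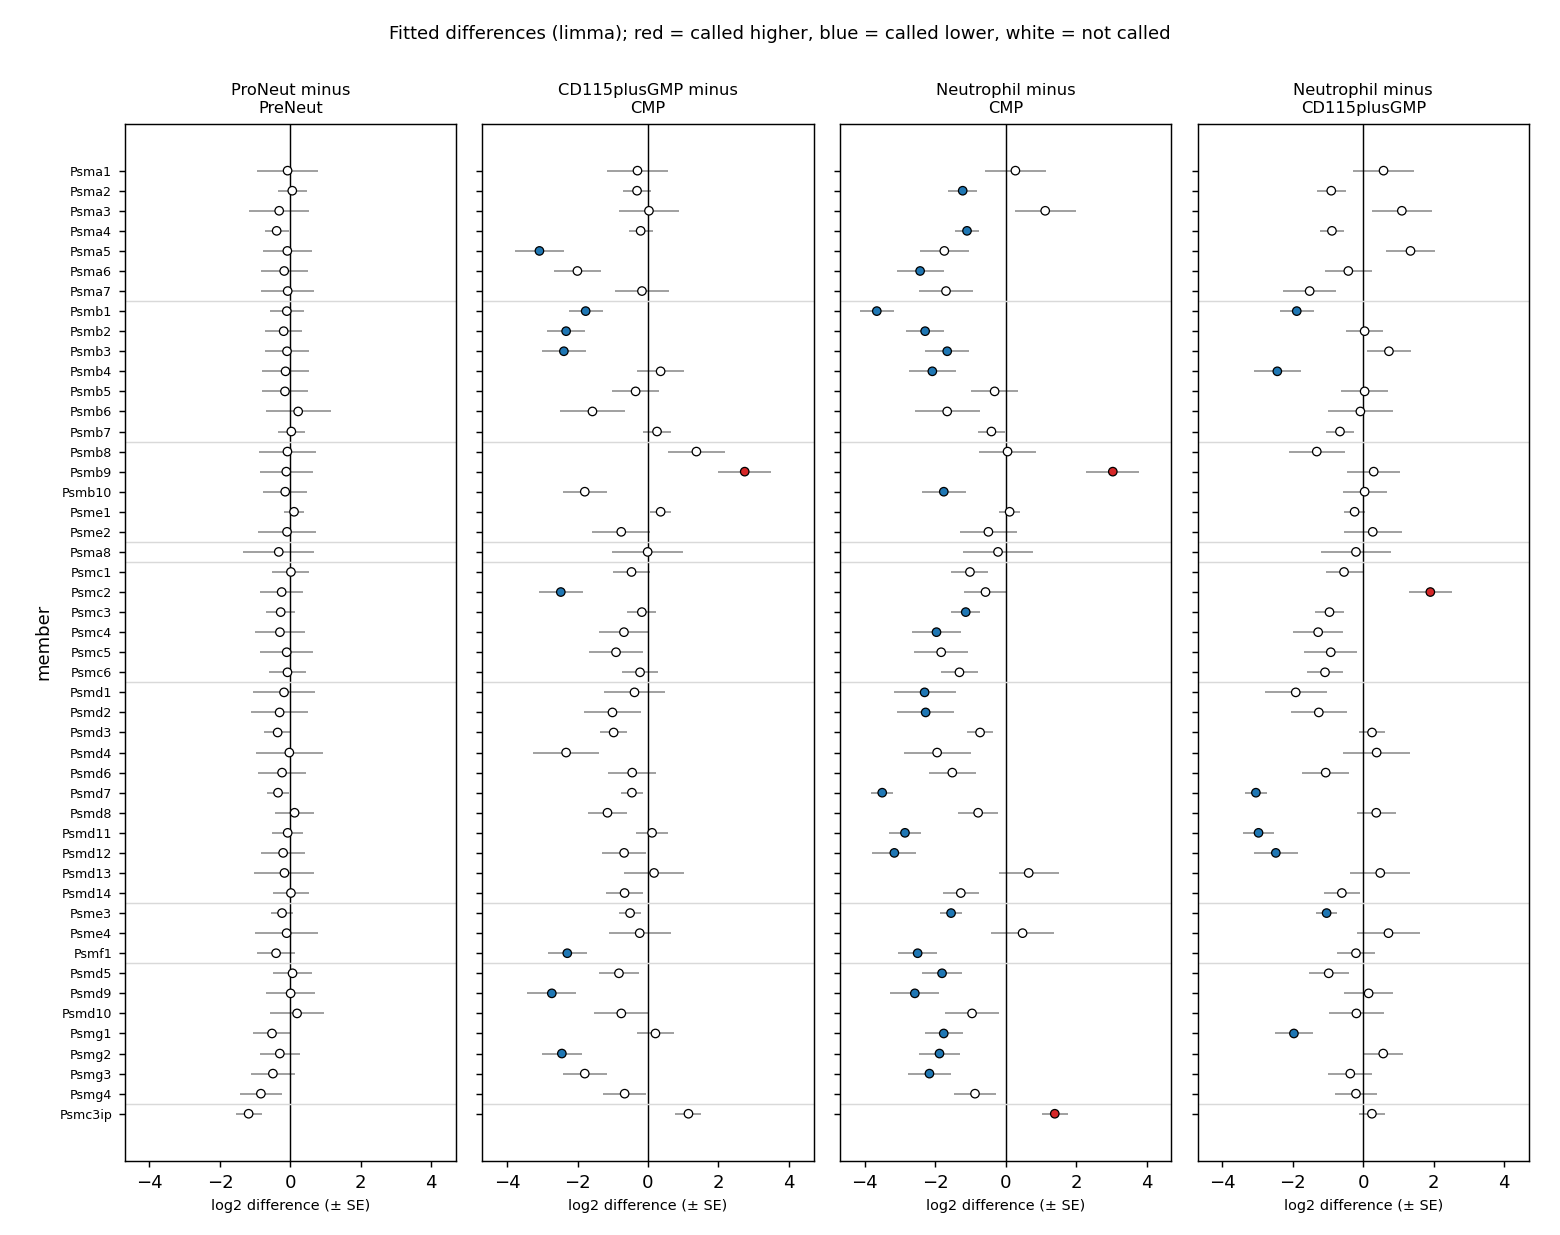
Fitted log2 difference of each member (vertical axis, grouped by role) in the 4 comparisons, with bars of 1 standard error from limma over all 15 libraries. Red points were called higher, blue lower and white not called: no point is coloured for ProNeut minus PreNeut, and 22 are blue for Neutrophil minus CMP.

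The comparison of CD115plusGMP with CMP follows the step from a shared myeloid progenitor to one restricted to granulocytes and monocytes. In the limma fit, 8 of 48 members were called lower in CD115plusGMP (16.7%, against 4.56% of all genes) and 1 higher (against 8.08%). Standard errors and adjusted p-values of this fit, here and in the other comparisons within the shallower set, rest on all 15 libraries. The median standard error of a member was 0.62 log2 units there and larger, 0.82, with the 9 shallower libraries alone. The median difference of the members was -0.59, and that of all genes 0.26. Computed from read ratios, with genes at 0 reads placed at their bound, the median was -0.46 over the 46 members that allow a ratio. The count of 8 ranged from 2 to 13 over the alternatives: it was 2 with only the 9 shallower libraries, 5 with 2 reads added and 13 with plain library totals. Scalings moved the median of all genes from 0.26 to as low as -0.30, and the members' median to -1.14. Called genes split into 1144 higher and 646 lower, and with plain totals into 696 and 1383. It was 13 without CD115plusGMP replicate 1, and 5 without CMP replicate 2 or CD115plusGMP replicate 2.

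The 8 members lower in CD115plusGMP were spread over the particle. The constitutive beta ring had 3 of 7, Psmb1, Psmb2 and Psmb3, all non-catalytic neighbours of the catalytic subunits. Psma5 of the alpha ring, the ATPase Psmc2, the chaperones Psmd9 and Psmg2 and the inhibitor Psmf1 made up the rest. No member of the 11 other regulatory subunits was called.

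Psmc2 had 26, 27 and 29 reads in the CMP libraries and 10, 1 and 1 in CD115plusGMP. On the log2 CPM scale this was 4.94, 4.7 and 4.57 against 3.77, 1.5 and 1.51, so that every CD115plusGMP library lay below every CMP library. The difference was -2.48 (SE 0.62, limma adjusted p = 0.0136), and was not called without CD115plusGMP replicate 2 or 3.

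Psmd9, a chaperone that binds the ATPase Psmc3 during assembly, had 19, 25 and 17 reads in CMP and 2, 1 and 1 in CD115plusGMP. The groups did not overlap, and the difference was -2.73 (SE 0.69, limma adjusted p = 0.0152). It was not called in the fit of the shallower libraries alone, nor without CMP replicate 1 or 2. Psmd9 shares 1849 bases of exon with Gm26745 on the opposite strand.

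Psma5 had 4, 10 and 8 reads in CMP and 0 in each CD115plusGMP library, at least 4.23-fold lower by reads scaled to library size with a floor of 3 reads over the group. Its fitted difference had an adjusted p of 0.00751 in limma and was not called with 2 reads added. Psmg2, a chaperone that pairs with Psmg1 to build the alpha ring, had 1, 9 and 7 reads in CMP and 0 in CD115plusGMP, at least 3.27-fold lower (limma adjusted p = 0.00912). That call was lost without CMP replicate 2 and under 3 other alternatives.

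The other 4 rested on few reads. Psmb1 fell from 53 reads in CMP to 8 in CD115plusGMP, with a difference of -1.77 (SE 0.48, limma adjusted p = 0.0213). That call was lost under 5 alternatives, among them leaving out CMP replicate 2 or 3 or CD115plusGMP replicate 2. For Psmb2 the totals were 19 and 1 reads, a ratio CMP to CD115plusGMP of 11 (95% counting interval 1.74 to 455). For Psmb3 they were 23 and 2 reads, a ratio of 6.63 (1.64 to 58.0), and for Psmf1 22 and 2, a ratio of 6.34 (1.56 to 55.7). The calls of Psmb2, Psmb3 and Psmf1 were lost with the 9 or the 6 libraries alone. Those of Psmb2 and Psmf1 were also lost with 2 reads added, and that of Psmb3 without CMP replicate 1 or CD115plusGMP replicate 2 or 3.

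Psmb9 was the member called higher. This immunoproteasome subunit, which replaces Psmb6, lies at chr17:34181987-34187764 on the minus strand. It had 1, 1 and 5 reads in CMP and 28, 5 and 4 in CD115plusGMP. On the log2 CPM scale this was 0.79, 0.51 and 2.15 against 5.21, 3.37 and 3.10, so the groups did not overlap. The difference was 2.75 (SE 0.76, limma adjusted p = 0.0234), and the ratio of scaled reads was 9.16 (95% counting interval 4.03 to 24.4). The call was lost under 7 of 19 alternatives, where the adjusted p reached 0.105: without CMP replicate 1 or 2 or CD115plusGMP replicate 1, with plain totals, with totals of genes with a symbol, with the shallower libraries alone and with limma-voom.

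Tap1, which encodes a subunit of the peptide transporter, shares 212 bases of exon with Psmb9 on the opposite strand. Its total was 126 reads in CMP and 39 in CD115plusGMP, and its mean log2 CPM 5.35 and 4.44. Tap1 was lower in value in CD115plusGMP but was not called in limma on the deposited scaling. The part of Tap1 reads in the level of Psmb9 was not tested.

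The other immunoproteasome genes were not called in this comparison. Psmb8 differed by 1.37 (SE 0.80), Psme1 by 0.36 (SE 0.30), Psme2 by -0.76 (SE 0.82) and Psmb10 by -1.79 (SE 0.62). For Psmb10 the 8, 6 and 10 reads of CMP all lay above the 3, 0 and 1 of CD115plusGMP, with a limma adjusted p of 0.0721. It was called lower under 6 alternatives, all but 1 of them other scalings and the last without CD115plusGMP replicate 1.

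Markers of other lineages moved alongside. Of 9 erythroid markers, 6 were called lower in CD115plusGMP. Their summed level was 404 to 534 CPM in CMP and 9.10 to 22.6 in CD115plusGMP, with Hba-a1, Car1, Ermap and Gata1 among those at 0 reads in the latter. All 6 monocyte markers were called higher, as were Elane, Mpo, Prtn3 and Ctsg among 12 neutrophil-lineage genes. Of 10 DNA replication genes, Pcna and Mcm2 were called lower, and the summed level was 523 to 552 CPM in CMP and 228 to 341 in CD115plusGMP. Their part in the proteasome differences was not tested.

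The comparison of Neutrophil with CMP spans the path from progenitor to mature cell and held the largest count of called members among the 4 comparisons. In limma, 22 of 48 were called lower in Neutrophil (45.8%, against 17.1% of all genes) and 2 higher (4.17%, against 26.8%). Lower calls came from every part of the particle: 3 of 7 in the alpha ring, 4 of 7 in the constitutive beta ring, 2 of 6 ATPases, 5 of 11 other regulatory subunits, 5 of 7 chaperones, 2 of 3 other activators or inhibitors and 1 of 5 immunoproteasome genes. The median difference of the members was -1.53, beside 0.60 for all genes, and -0.94 from read ratios over 47 members, of which 11 had 0 reads in Neutrophil and stood at their bound.

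The count depended on how the libraries were scaled, since the scalings moved the median of all genes from 1.46 to -0.77. It was 7 with libraries centred on their medians, 33 with quantile normalization, 36 with totals of genes with a symbol, 38 with TMM factors and 39 with plain totals. With limma-voom it was 38, with the 9 shallower libraries 13, with the 6 libraries of both groups 10, and with 2 reads added 10. It was 12 without CMP replicate 3. Over all genes, the split of 3792 higher and 2420 lower became 5574 and 1366 with median centring and 1923 and 4652 with plain totals. The median of a library was itself at 0 reads in Neutrophil replicates 1 and 2.

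Psmd7 stood apart. This subunit of the regulatory particle's lid pairs with the deubiquitinase Psmd14 and lies at chr8:107580381-107588464 on the minus strand. It had 145, 177 and 213 reads in CMP, 105, 57 and 66 in CD115plusGMP and 7, 4 and 6 in Neutrophil. On the log2 CPM scale, CMP stood at 7.39, 7.39 and 7.42, CD115plusGMP at 7.10, 6.76 and 6.98, and Neutrophil at 4.54, 3.79 and 3.38. The libraries of the 3 populations did not overlap.

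Psmd7 was lower in Neutrophil than in CMP by -3.50 (SE 0.32, limma adjusted p = 1.8e-07), and its ratio of scaled reads was 12.7 (95% counting interval 7.84 to 21.9). The call held under all 19 alternatives, with differences from -4.87 to -2.63. No call can be lost under 1 of the 19, which only drops the minimum difference. In the deeper set Psmd7 stood at 4.81, 4.64 and 4.77 in PreNeut and 4.25, 4.41 and 4.51 in ProNeut. Per kilobase it was the highest of the 48 members in CMP, at 6.74 log2 CPM, and stood at 4.08 in PreNeut. Since the sets differ in more than population, these values are only placed side by side.

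Psmb1, a beta ring subunit, had 8, 18 and 27 reads in CMP and 0 in every Neutrophil library, at least 7.11-fold lower (limma adjusted p = 1.08e-05). Psmd12, a lid subunit, had 4, 17 and 19 reads in CMP and 0 in Neutrophil, at least 5.37-fold lower (limma adjusted p = 0.000593). Psmd11, also of the lid, had 7, 9 and 11 reads in CMP and 0 in Neutrophil, at least 3.62-fold lower (limma adjusted p = 6.29e-05). For all 3, every Neutrophil library was below every CMP library in log2 CPM, and the calls held under all 19 alternatives. The deeper libraries showed the same genes at 391 to 7181 reads in PreNeut.

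Psma6, an alpha ring subunit, and Psmd9 were also called under all 19 alternatives. Psma6 had 11, 9 and 21 reads in CMP and 0, 0 and 3 in Neutrophil, a ratio CMP to Neutrophil of 5.5 (95% counting interval 1.76 to 27.8). Its limma adjusted p was 0.00731, and the groups did not overlap. Psmd9 had 19, 25 and 17 reads in CMP and 0, 0 and 9 in Neutrophil. Its groups overlapped, at 3.82 log2 CPM in CMP replicate 3 and 3.93 in Neutrophil replicate 3, with a difference of -2.58 (SE 0.69, limma adjusted p = 0.00642).

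The other genes named by size with 0 reads in all Neutrophil libraries were an inhibitor, a beta subunit and a chaperone. Psmf1, the inhibitor that caps the core, was at least 2.95-fold lower (22 reads in CMP, limma adjusted p = 0.00141), a call lost with 2 reads added. Psmb2, a non-catalytic beta ring subunit, was at least 2.55-fold lower (19 reads, limma adjusted p = 0.00219), and the chaperone Psmg3 at least 2.28-fold lower (17 reads, limma adjusted p = 0.0096). The calls of Psmb2 and Psmg3 were lost with 2 reads added and with median centring.

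Psmd1 and Psmd2, the large scaffold subunits of the base, varied between Neutrophil libraries. Psmd1 had 34, 33 and 46 reads in CMP and 5, 9 and 0 in Neutrophil, a difference of -2.30 (SE 0.88, limma adjusted p = 0.0438). Psmd2 had 42, 68 and 74 reads in CMP and 11, 0 and 19 in Neutrophil, a difference of -2.27 (SE 0.80, limma adjusted p = 0.0309). The groups did not overlap in log2 CPM. The call of Psmd1 was lost without Neutrophil replicate 3 and that of Psmd2 without Neutrophil replicate 2, the libraries with 0 reads, and both were lost without CMP replicate 1, 2 or 3.

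Psmb9 was higher in Neutrophil than in CMP. It had 8, 1 and 31 reads in Neutrophil, or 4.72, 2.20 and 5.66 log2 CPM, all above the 0.79, 0.51 and 2.15 of CMP, with the lowest Neutrophil library only just above the highest of CMP. The difference was 3.04 (SE 0.76, limma adjusted p = 0.00362), and the ratio of scaled reads 14.2 (95% counting interval 6.29 to 37.5). The call was lost with plain totals (adjusted p = 0.121), with TMM factors (0.0790) and with limma-voom (0.0867). The number of members called higher was 3 without Neutrophil replicate 1 and 4 without replicate 2. The Tap1 total was 126 reads in CMP and 52 in Neutrophil, and its mean log2 CPM 5.35 and 4.64. Tap1 was not called here either.

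Psmc3ip was the other member called higher, and is named after its values were seen. It had 47, 66 and 75 reads in CMP and 49, 85 and 59 in Neutrophil, or 5.78, 5.98 and 5.92 against 7.26, 8.03 and 6.57 log2 CPM. The difference was 1.40 (SE 0.37, limma adjusted p = 0.00555), with no overlap between groups. The call was lost under 5 alternatives, quantile normalization, plain totals, totals of genes with a symbol, TMM and limma-voom, where the difference fell to as little as 0.03. Its opposite-strand neighbour Mlx had 177 reads in CMP and 32 in Neutrophil.

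Of the remaining immunoproteasome genes, only Psmb10 was called, and lower. It had 8, 6 and 10 reads in CMP and 0, 0 and 3 in Neutrophil, a ratio CMP to Neutrophil of 3.22 (95% counting interval 0.98 to 16.7), with a limma adjusted p of 0.0313. That call was lost under 8 of 19 alternatives, among them leaving out CMP replicate 1 or 3 or Neutrophil replicate 1 or 2. Psmb8 differed by 0.06 (SE 0.80), Psme1 by 0.11 (SE 0.30) and Psme2 by -0.49 (SE 0.82). Psme1, a subunit of the activator cap induced by interferon, was high throughout the shallower set, at 6.47, 6.97 and 6.77 log2 CPM in CMP, 7.32, 6.88 and 7.09 in CD115plusGMP and 6.78, 6.29 and 7.48 in Neutrophil. Those groups overlapped, and Psme1 was called lower in Neutrophil with plain totals, TMM and limma-voom.

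Overlap with genes on the opposite strand was examined because of the unknown strand of counting. Such a partner, with at least 50 shared bases of exon, exists for 10 members: Psmd1, Psmc3ip, Psmb9, Psmb8, Psmb7, Psmc3, Psma5, Psmd9, Psmd13 and Psma4. In CMP, the median level was 4.71 log2 CPM for these 10 and 3.58 for the other 38, whereas in PreNeut it was 4.94 and 5.11. For example, AY074887, opposite Psma4, had 161 reads in CMP and 9 in PreNeut. Among the 31 members with neither a partner nor a near-identical copy, 15 were called lower in Neutrophil than in CMP and none higher. Among the 10 with a partner, 4 were called lower and 2 higher, and among the 9 with a copy, 4 lower and none higher. Over all genes, 17.1% were called lower and 26.8% higher. Both members called higher, Psmb9 and Psmc3ip, have a partner. The part of reads from the opposite strand in these levels and calls was not tested.

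Signs of cell state and of other cells also differed between Neutrophil and CMP. Of 10 DNA replication genes, 9 were called lower in Neutrophil, with Mcm2, Mcm3, Mcm5, Pcna and Rrm2 at 0 reads, and Gins2 was called higher. Of 9 erythroid markers, 6 were called lower and 7 were at 0 reads in Neutrophil. B cell markers summed to 43.3 to 88.8 CPM in Neutrophil and 0 to 6.44 in CMP. T and NK cell markers summed to 6.19 to 17.6 CPM in Neutrophil and were at 0 reads in CMP. Their part in the proteasome differences was not tested.

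The comparison of Neutrophil with CD115plusGMP shares its libraries with those above, so the values are given for themselves. In limma, 7 of 48 members were called lower in Neutrophil (14.6%, against 13.2% of all genes), a share near the background, and 1 was called higher (2.08%, against 20.2%). The median difference of the members was -0.31, beside 0.32 for all genes. The sign of the members' median was not stable: it was 0.59 with libraries centred on their medians, 0.10 with 2 reads added and 0.082 without CD115plusGMP replicate 1. The count of 7 ranged from 3 to 23 over the alternatives. Scalings moved the median of all genes from 0.32 to as low as -0.73, and the split of 2861 called higher and 1865 lower to 4369 and 978 with median centring and 1617 and 3652 with TMM.

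The members called lower were Psmd7, Psmd11, Psmd12, Psmb4, Psmg1, Psmb1 and Psme3. Psmd7 differed by -3.05 (SE 0.32, limma adjusted p = 1.73e-06), with a ratio of scaled reads of 9.36 (95% counting interval 5.72 to 16.4), and was called under all 19 alternatives. Psmd11 had 7, 3 and 7 reads in CD115plusGMP and 0 in Neutrophil, at least 3.95-fold lower (limma adjusted p = 6.43e-05), also under all 19. Psmd12 had 13, 3 and 1 reads in CD115plusGMP and 0 in Neutrophil, likewise at least 3.95-fold lower (limma adjusted p = 0.00501), a call lost with 2 reads added and with the 6 libraries alone.

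Psmb4, a beta ring subunit, had 35, 22 and 16 reads in CD115plusGMP and 0, 3 and 14 in Neutrophil, a difference of -2.44 (SE 0.66, limma adjusted p = 0.00853). Its groups did not overlap in log2 CPM, from 4.97 upward in CD115plusGMP and up to 4.54 in Neutrophil. The call was lost with median centring, at an adjusted p of 0.0515. Psmg1 (9 reads, at least 2.09-fold lower, limma adjusted p = 0.00847) and Psmb1 (8 reads, at least 1.86-fold lower, limma adjusted p = 0.00528) had 0 reads in Neutrophil. Both calls were lost with median centring, with 2 reads added and with the 9 or the 6 libraries alone.

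Psme3, which forms a nuclear activator cap, had 27, 19 and 15 reads in CD115plusGMP and 4, 4 and 14 in Neutrophil. Its difference was -1.04 (SE 0.30, limma adjusted p = 0.0125), close to the minimum size, and the call was lost under 8 alternatives, including those without CD115plusGMP replicate 1 or 2 or Neutrophil replicate 1 or 2.

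Psmc2 was called higher in Neutrophil, with 2, 14 and 10 reads against 10, 1 and 1 in CD115plusGMP. The libraries overlapped, at 2.95, 5.47 and 4.07 log2 CPM against 3.77, 1.5 and 1.51. The difference was 1.90 (SE 0.62, limma adjusted p = 0.0243) and was lost under 10 of 19 alternatives, among them leaving out Neutrophil replicate 2 or CD115plusGMP replicate 2 or 3. No immunoproteasome gene was called: Psmb9 differed by 0.30 (SE 0.76), Psmb8 by -1.32 (SE 0.80), Psmb10 by 0.04 (SE 0.62), Psme1 by -0.25 (SE 0.30) and Psme2 by 0.27 (SE 0.82). Psmb8 was called lower with TMM, limma-voom and without Neutrophil replicate 3, and Psme1 with plain totals, TMM and limma-voom.

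Marker lists differed between Neutrophil and CD115plusGMP as well. Of 10 DNA replication genes, 8 were called lower in Neutrophil and Gins2 higher, with summed levels of 114 to 211 CPM against 228 to 341. Of 6 monocyte markers, 5 were called lower, at 15.3 to 94.5 CPM against 275 to 464. Of 12 neutrophil-lineage genes, 8 were called higher, while Mpo, Ctsg, Prtn3 and Elane were called lower. B cell markers summed to 43.3 to 88.8 CPM in Neutrophil and 1.88 to 3.90 in CD115plusGMP, and T and NK cell markers to 6.19 to 17.6 and 0 to 7.53. For each of these lists, 1 of the 2 genes tested was called higher. Their part in the proteasome differences was not tested.

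Each immunoproteasome catalytic subunit takes the place of a constitutive one, so their reads were also compared within each library, where scaling has no effect. For Psmb9 and Psmb6 together, Psmb9 held 17.1% of the reads in CMP (7 of 41, exact 95% binomial interval 7.15% to 32.1%). It held 72.5% in CD115plusGMP (58.3% to 84.1%) and 80.0% in Neutrophil (66.3% to 90%). In the deeper set it held 41.1% in PreNeut (40.2% to 42.0%) and 34.8% in ProNeut (33.3% to 36.3%). Intervals cover counting error only.

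Per library, the log2 ratio of Psmb9 to Psmb6 reads per kilobase, with 0.5 reads added, was -3.08, -3.70 and -2.35 in CMP. It was 0.32, 1.11 and 2.41 in CD115plusGMP and 3.33, 0.82 and 0.82 in Neutrophil. Every CMP library lay below every library of the other shallower groups, which overlapped each other. CD115plusGMP replicate 3 and Neutrophil replicates 1 and 2 had 0 reads of Psmb6, so the 0.5 reads added set their ratios. Of the pooled Psmb9 reads, CD115plusGMP replicate 1 held 28 of 37 and Neutrophil replicate 3 held 31 of 40. Tap1 overlaps Psmb9 on the opposite strand, so the share of Psmb9 is uncertain. In PreNeut the ratio was -1.32, -1.22 and -1.28, and in ProNeut -1.31, -1.69 and -1.84. Those ranges overlapped by a small margin.

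For Psmb8 and Psmb5, the pair of chymotrypsin-like cleavage, Psmb8 held 76.0% of reads in CMP (19 of 25, exact 95% binomial interval 54.9% to 90.6%) and 96.8% in CD115plusGMP (83.3% to 99.9%). In Neutrophil all 18 reads were of Psmb8 (81.5% to 100%), and 17 of them were in replicate 3. In PreNeut the share was 76.9% (76.0% to 77.7%) and in ProNeut 75.7% (73.9% to 77.3%), while the mean log2 ratio per kilobase was 0.73 ± 0.23 (SD, n = 3) and 0.80 ± 0.14. The interval of CMP covered the values of the deeper set. Psmb5 has a near-identical copy and Psmb8 an opposite-strand partner, Gm20496, so this share is uncertain.

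For Psmb10 and Psmb7, the pair of trypsin-like cleavage, the immunoproteasome subunit was the minor one throughout. Psmb10 held 15.2% in CMP (exact 95% binomial interval 9.98% to 21.8%), 4.21% in CD115plusGMP (1.16% to 10.4%) and 6.98% in Neutrophil (1.46% to 19.1%). In PreNeut it held 13.9% (13.2% to 14.7%) and in ProNeut 15.5% (14.2% to 16.9%). Within PreNeut the libraries differed by more than counting error, at 18.9%, 22.3% and 11.8%, and the last, replicate 3, held most of the pooled reads. In ProNeut they stood at 14.4%, 17.8% and 14.5%, within that range. The mean log2 ratio per kilobase was -2.44 ± 0.57 (SD, n = 3) in PreNeut and -2.62 ± 0.21 in ProNeut, the opposite order to the pooled shares, and the difference was smaller than the spread. In value, the pooled share of Psmb10 was lower in CD115plusGMP than in CMP, but it rested on 4 reads and the intervals overlapped. By library it was 28.6%, 11.8% and 12.7% in CMP and 5.45%, 0% and 5.26% in CD115plusGMP. The pooled share of Psmb9 was higher in CD115plusGMP than in CMP. Neither difference was tested.

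**Figure D4:**
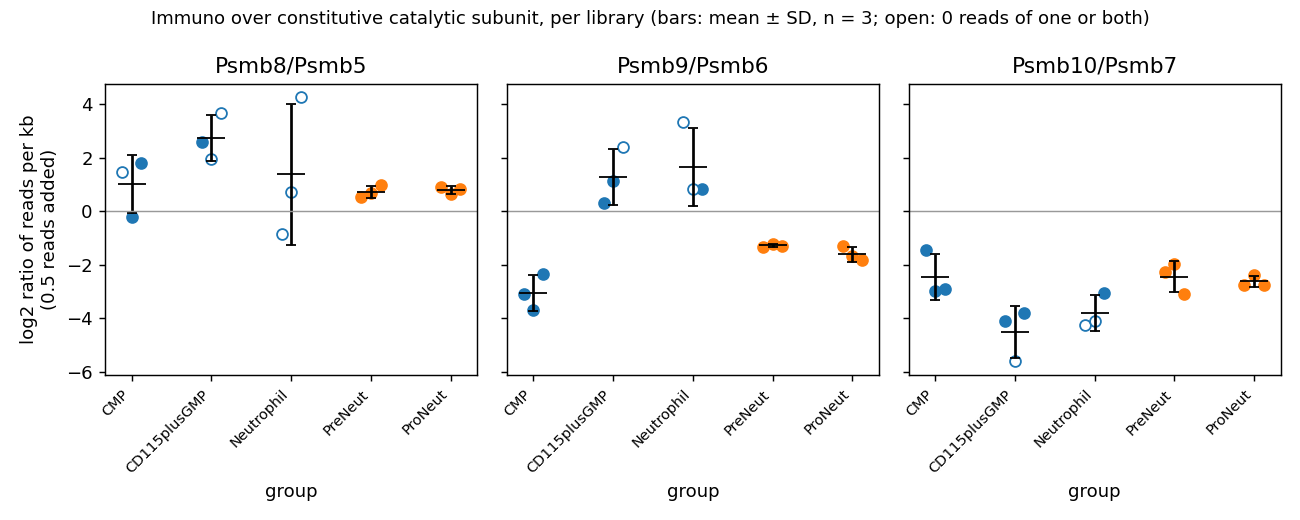
Log2 ratio of immunoproteasome to constitutive subunit reads per kilobase, with 0.5 reads added, in each library (points) of the 5 groups, with mean ± SD over 3 libraries; blue marks the shallower and orange the deeper libraries, and open points have 0 reads of at least 1 subunit. For Psmb9/Psmb6 the CMP points lie between -3.70 and -2.35, and those of CD115plusGMP and Neutrophil all lie above 0.

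Psmb6 and Psmb5, whose printed promoters hold TGACNNNGC from position -9 and -47 relative to the gene start, were not called in any of the 4 comparisons on the deposited scaling. Psmb6 was called lower in CD115plusGMP than in CMP without CD115plusGMP replicate 1. It was also called lower in Neutrophil than in CMP with quantile normalization, plain totals, totals of genes with a symbol, TMM, limma-voom and without Neutrophil replicate 3, and Psmb5 there with plain totals. Psmb6 had 7, 11 and 16 reads in CMP, 13, 1 and 0 in CD115plusGMP and 0, 0 and 10 in Neutrophil, and the groups overlapped. Psmb5 had 0, 5 and 1 reads in CMP, 1, 0 and 0 in CD115plusGMP and 0 in Neutrophil. Psmb7 had 20, 45 and 69 reads in CMP, 52, 21 and 18 in CD115plusGMP and 8, 7 and 25 in Neutrophil, with differences of 0.26 (SE 0.39) and -0.40 (SE 0.39) from CMP. It was called lower in Neutrophil than in CMP, and than in CD115plusGMP, with quantile normalization, plain totals, totals of genes with a symbol, TMM and limma-voom.

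Beyond the Psm genes, 30 genes of the ubiquitin-proteasome pathway were tested: partners of the particle, regulators of subunit genes, ubiquitin genes, and genes of ubiquitin activation and shuttling. None was called between ProNeut and PreNeut in limma. In CD115plusGMP against CMP, 2 were higher (6.67%, against 8.08% of all genes) and none lower (against 4.56%). Sem1, a small subunit of the regulatory particle's lid not named Psm, was higher by 1.16 (SE 0.21, limma adjusted p = 0.00122), and Uba6, a ubiquitin-activating enzyme, by 2.0 (SE 0.58, limma adjusted p = 0.0327).

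These lists were counted on the deposited scaling only, and other library totals would move all differences of a comparison by 1 amount. In Neutrophil against CMP, 8 of the 30 were higher (26.7%, against 26.8% of all genes) and 7 lower (23.3%, against 17.1%), shares near the background. Usp14, a deubiquitinase bound to the particle, fell from 500 reads to 25, a difference of -4.20 (SE 0.74, limma adjusted p = 0.000206). Txnl1, a particle-bound thioredoxin, had 74 reads in CMP and 0 in Neutrophil (limma adjusted p = 1.02e-05).

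Among the genes called higher, Uba6 was higher by 4.55 (SE 0.58, limma adjusted p = 8.63e-06), and Ubr4, a ubiquitin ligase, by 3.43 (SE 0.49, limma adjusted p = 2.67e-05). Sem1 was higher by 2.42 (SE 0.21, limma adjusted p = 1.1e-07). Of 4 regulators of subunit genes, Nfe2l2 was higher by 2.90 (SE 0.31, limma adjusted p = 1.1e-06) and Nfe2l1, which drives subunit genes when the proteasome is inhibited, by 2.39 (SE 0.57, limma adjusted p = 0.00273). Sem1 and Nfe2l1 are named after their values were seen. In the same libraries 22 of 48 Psm genes were called lower (45.8%, against 17.1% of all genes), a count that ran from 7 to 39 over the alternatives. A link between the regulators and the Psm genes was not tested.

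Against CD115plusGMP, 5 of the 30 were higher in Neutrophil (16.7%, against 20.2% of all genes) and 5 lower (16.7%, against 13.2%), also near the background. Usp14 fell by 4.14 on the log2 scale (limma adjusted p = 0.000331). Txnl1 had 16 reads in CD115plusGMP and 0 in Neutrophil (limma adjusted p = 0.00147). Ubr4 was higher by 2.72 (limma adjusted p = 0.000356), Nfe2l2, a stress-responsive regulator of subunit genes, by 2.61 (6.09e-06) and Uba6 by 2.56 (0.00248). The libraries are those of the comparisons above.

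Of 16 genes of peptide presentation, which use what the immunoproteasome makes, none was called between ProNeut and PreNeut in limma. In CD115plusGMP, Irf8 and Calr were higher than in CMP (12.5%, against 8.08% of all genes) and none was lower. In Neutrophil against CMP, on the deposited scaling, 9 were higher (56.2%, against 26.8% of all genes) and 2, Irf8 and Calr, lower (12.5%, against 17.1%). The class I heavy chain H2-D1, named like Irf1 after values were seen, had 1091 reads in Neutrophil and 120 in CMP, a difference of 4.12 (SE 0.38, limma adjusted p = 1.95e-07). Irf1, an interferon-responsive factor, differed by 4.30 (SE 0.51, limma adjusted p = 3.72e-06).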

How the data were processed

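RNA libraries of 5 sorted mouse bone marrow populations were analysed, 3 per population. The library kit was Nugen's Universal Plus mRNA-Seq, per the labels' protocols. The authors deposited 1 table of log2 CPM values (log2 of reads scaled by library size, with 0.5 reads added) for 14801 genes. The authors used featureCounts 1.22.2, edgeR 1.30.5, FastQC 0.11.7 and the GRCm38 (mm10) build, per the submitters' processing notes. Not given in the sources used here are the aligner, the strand setting and the annotation. Whole reads were recovered for 100% of values (tolerance 0.001 reads); they sum to 810794 to 68171606 per library. Of the identifiers, 503 have no symbol. Replicates differed by more than sampling noise (chi-square per degree of freedom 2.10 to 24.4 over genes with at least 10 reads).

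Genes with log2 CPM above 0 in at least 3 of 15 libraries were tested in R 4.3.3 with limma 3.58.1 on the log2 values as deposited (eBayes with trend, all 15 libraries sharing 1 estimate of spread), with 2-sided p-values and Benjamini-Hochberg adjustment over 14161 genes in each of 4 comparisons. Alternatives were limma-voom on the recovered reads of the same set of libraries, other scalings (TMM among them), filters, added reads and sample sets, a replicate block, and each library left out. The limma and limma-voom functions were tested on simulated data. For single genes an exact permutation test of 3 against 3 cannot go below p = 0.1 and was not used.

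The members, lists and rules were chosen with earlier results of these data known. Named members are the immunoproteasome genes, their constitutive counterparts and, per comparison, up to 12 called members with the largest difference (with under 6 called, also the 3 uncalled ones furthest from 0 each way). From the pathway list up to 6 called genes are named (some marker and pathway genes are not reported here), and other genes named were chosen after their values were seen, as were the motifs and printed promoters. Positions and opposite-strand overlaps came from GENCODE M21 on GRCm38, transcript lengths from the longest protein-coding transcript, and promoters from RefSeq (GRCm38.p6). Ratios of reads were scaled to the library sizes that the deposited values imply, not to the totals of recovered reads. They had a floor of 3 reads over a group and 95% exact intervals. Floors and intervals cover counting error only.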

Additional observations from a re-analysis of the deposited data

How the results depend on the processing

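Totals of genes with a symbol and limma-voom were added after the data were seen; the other alternatives were not. The edgeR and DESeq2 fits planned as alternatives were not run, and limma-voom on the recovered reads took their place. Between ProNeut and PreNeut, 1 member was called lower with plain totals, the 6 deeper libraries and limma-voom. All genes called there numbered 320, and 126 with quantile normalization, 607 with 2 reads added, 903 with the 6 libraries and 1206 with limma-voom. For CD115plusGMP against CMP, members called higher numbered 0 with plain totals, the 9 libraries, limma-voom and totals of genes with a symbol, and 2 with the stricter filter, 2 reads added or the 6 libraries. Members called lower were 13 with plain totals, 5 with 2 reads added and 2 with the 9 libraries, and all genes called went from 1790 to 2689 with quantile normalization.

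For Neutrophil against CMP, members called higher were 1 with quantile normalization or totals of genes with a symbol and 0 with plain totals, TMM or limma-voom. Those lower were 7 with median centring, 39 with plain totals, 38 with TMM or limma-voom, 10 with 2 reads added, 13 with the 9 libraries, 10 with the 6 and 36 with totals of genes with a symbol. For Neutrophil against CD115plusGMP, members called higher were 4 with median centring and 0 with quantile normalization, plain totals, TMM, the 9 or 6 libraries, limma-voom and totals of genes with a symbol. Those lower were 18 with quantile normalization or plain totals, 20 with limma-voom, 3 with median centring, 2 reads added or the 6 libraries, 23 with TMM, 4 with the 9 libraries and 15 with totals of genes with a symbol. The members' median turned from -0.31 to 0.59 with median centring, 0.10 with 2 reads added and 0.082 without CD115plusGMP replicate 1. With 2 reads added, the mean log2 ratio moved to 1.35 for Psmb8/Psmb5 and -3.41 for Psmb10/Psmb7 in CD115plusGMP, and to -2.48 for Psmb10/Psmb7 in Neutrophil. The cause of these shifts was not tested.

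Leaving out 1 library at a time, the genes called between ProNeut and PreNeut ranged from 195 to 405. For CD115plusGMP against CMP, members called higher ranged from 0 to 1 and lower from 5 to 13. For Neutrophil against CMP these ranges were 2 to 4 and 12 to 27, and for Neutrophil against CD115plusGMP 0 to 2 and 6 to 11, with the median from -0.69 to 0.082. Over named members, 1233 values kept their side of the threshold, 154 lost a call and 37 gained one.

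Whether replicate numbers pair the libraries is not known from the labels. Deviations of libraries with the same number correlated at -0.05 to 0.15, with 1 of 12 correlations above 0.1. For ProNeut and PreNeut they were 0.083, 0.054 and 0.145. Counting noise at few reads lowers such correlations, so they cannot exclude pairing. With the replicate block, members called lower numbered 0, 9, 21 and 7 in the 4 comparisons and higher 0, 1, 2 and 1. Depth limits the shallower set: 12 members had 0 reads in all Neutrophil libraries.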
